A study of Mus musculus with 10 samples.

Results

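Type 17 helper genes are the genes that mark and equip the helper T cells which make interleukin 17. The 9 genes described here were taken by name from the deposited gene table: Rora, Il17a, Il17f, Il22, Il23r, Ccr6, Il1r1, Tmem176a and Tmem176b. They are 9 of the 17363 named genes in the table, and all 9 passed the filter on low values that left 14473 genes for testing. RNA was sequenced from CD4+CD25- T cells sorted out of digested breast tumours of PyMT mice, which carry a transgene for mammary tumours; the mice were 23 weeks old and of strain C57BL/6. The study deleted Tgfbr2, the gene of a TGF-beta receptor chain, in CD4 T cells and asked how this acts with or without Il4, the gene of the type 2 cytokine interleukin 4. All 4 genotypes carried floxed Tgfbr2. WT had floxed Tgfbr2 without Cre, KO carried in addition the ThPOK-Cre transgene, which is active in the CD4 lineage, IL4-/- lacked Il4 with no Cre, and IL4-/-KO had both the Il4 deficiency and ThPOK-Cre. Each genotype had 2 replicates, and the RNA of each KO replicate went into a first and a repeat library, so that 8 replicates came with 10 libraries. Whether replicates came from separate mice is not given in the labels, and p-values therefore measure only the spread between these samples, part of which may be technical.

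Type 17 helper cells arise when T cells see antigen together with TGF-beta and interleukin 6, and nuclear receptors of the ROR family, among them RORalpha, the product of Rora, take part in their program. Interleukin 23 and interleukin 1 then act through receptors encoded by Il23r and Il1r1 to maintain the program, and the chemokine receptor encoded by Ccr6 guides the cells to tissue that makes Ccl20. The secreted cytokines of the program, encoded by Il17a, Il17f and Il22, act mainly on epithelium and stroma, where they call in neutrophils and support the barrier. TGF-beta is an inducer of this program and interleukin 4 is a known antagonist of it, which makes these genes a natural readout for both deletions.

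RORalpha binds a core that holds AGGTCA, so the promoter windows of the members were searched for those letters on either strand. The windows came from RefSeq on GRCm38.p6 and ran from 250 bases before to 50 bases after each start site. All 9 members matched the table, with 14 windows in all. The letters AGGTCA, or TGACCT on the other strand, stood in 4 of the 14 member windows, and in 16.3% of all 32851 windows of this length. The 4 windows belonged to 4 of the 9 members, Il17a, Il17f, Il23r and Ccr6. Counted in bases from the start site, the match began at -120 in Il17a, at -58 in Il17f, at -44 in Ccr6, and at -229 and -66 in Il23r. The windows of these 4 genes are printed 5′ to 3′ on the strand of the gene, with the matches in capitals. They lie at chr1:20730655-20730954 on the plus strand for Il17a, chr1:20784221-20784520 on the minus strand for Il17f, chr6:67491806-67492105 on the minus strand for Il23r and chr17:8235793-8236092 on the plus strand for Ccr6.
Il17a: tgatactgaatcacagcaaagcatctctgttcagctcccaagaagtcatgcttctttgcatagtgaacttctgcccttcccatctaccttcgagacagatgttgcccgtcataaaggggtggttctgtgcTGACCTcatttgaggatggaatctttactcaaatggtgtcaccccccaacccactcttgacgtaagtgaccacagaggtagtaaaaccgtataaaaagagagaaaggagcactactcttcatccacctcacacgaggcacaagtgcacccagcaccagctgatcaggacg
Il17f: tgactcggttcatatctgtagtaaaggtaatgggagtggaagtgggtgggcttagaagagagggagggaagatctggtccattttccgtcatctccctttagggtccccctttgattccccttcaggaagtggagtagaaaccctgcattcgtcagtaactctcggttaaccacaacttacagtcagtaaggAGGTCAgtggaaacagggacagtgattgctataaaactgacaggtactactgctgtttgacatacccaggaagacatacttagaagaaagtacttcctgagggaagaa
Il23r: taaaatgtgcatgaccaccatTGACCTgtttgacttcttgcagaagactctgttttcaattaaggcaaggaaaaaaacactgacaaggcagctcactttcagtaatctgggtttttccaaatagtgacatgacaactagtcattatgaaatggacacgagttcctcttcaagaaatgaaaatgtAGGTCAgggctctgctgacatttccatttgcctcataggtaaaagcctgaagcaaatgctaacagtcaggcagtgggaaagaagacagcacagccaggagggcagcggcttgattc
Ccr6: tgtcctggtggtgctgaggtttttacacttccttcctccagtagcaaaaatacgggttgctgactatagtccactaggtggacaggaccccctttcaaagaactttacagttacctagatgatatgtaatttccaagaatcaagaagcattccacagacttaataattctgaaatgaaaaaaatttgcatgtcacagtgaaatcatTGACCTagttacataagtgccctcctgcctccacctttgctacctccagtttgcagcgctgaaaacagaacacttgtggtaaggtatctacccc
The letters TGANTCA are a core bound by AP-1 factors such as BATF with its partners. They stood in 1 of the 14 member windows, at -244 of Il17a, and in 7.81% of all windows. The letters TTCNNNGAA are a core bound by STAT factors. They stood in 1 of the 14 member windows, at -157 and -120 of Ccr6, and in 8.30% of all windows. None of these matches overlapped a match of AGGTCA. These are matches of letters in short windows and not measured binding.

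Tmem176a and Tmem176b are printed for another reason, since they are neighbours that point away from each other. Their RefSeq start sites on chromosome 6 lie 346 bases apart, and 155 of the 300 bases of the Tmem176a window are also in the Tmem176b window. The window of Tmem176a, at chr6:48841233-48841532 on the plus strand of GRCm38.p6, is printed with the shared bases in capitals.
Tmem176a: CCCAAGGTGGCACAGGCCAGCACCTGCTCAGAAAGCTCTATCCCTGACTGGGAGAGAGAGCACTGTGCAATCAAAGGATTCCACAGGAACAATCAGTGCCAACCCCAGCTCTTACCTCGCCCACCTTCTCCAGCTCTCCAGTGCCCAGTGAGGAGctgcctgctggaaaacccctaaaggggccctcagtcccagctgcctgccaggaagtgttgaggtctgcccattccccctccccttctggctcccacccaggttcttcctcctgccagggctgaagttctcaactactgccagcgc
None of the windows of Tmem176a and Tmem176b held any of the letters searched, on either strand.

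In mm10 with a GENCODE annotation, Rora spans bases 68653786 to 69388246 of chromosome 9 on the plus strand. Il17a (chromosome 1, 20730905 to 20734496, plus strand) and Il17f (chromosome 1, 20777146 to 20790617, minus strand) are neighbours, and Il1r1 (40225080 to 40317257, plus strand) lies on the same chromosome. Il22 spans 118204942 to 118210047 of chromosome 10, Il23r 67422932 to 67491855 of chromosome 6 and Ccr6 8236043 to 8257141 of chromosome 17. Tmem176a (48840919 to 48847071, plus strand) and Tmem176b (48833818 to 48841496, minus strand) share 81 exonic bases of chromosome 6 on opposite strands, and reads from those bases cannot be told apart without strand. Rora shares 82 exonic bases with the antisense gene Gm15511. Il22 has a near-identical copy, Iltifb, so its reads could have been split and its level is uncertain. Iltifb is not among the named genes of the table.

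The libraries held 17121030 to 33802781 reads and fell into 2 sets by depth, with WT and the first KO libraries at 17121030 to 18479090 and the KO repeats, IL4-/- and IL4-/-KO at 28003231 to 33802781. A value of 0 allowed up to 3 reads, which is 1.93 to 4.41 normalized counts depending on the library and covers counting error only. In KO replicate 2 the repeat library had fewer genes detected than any other, 12459 against 12891 to 15899. Tgfbr2 reads do not check the deletion, because reads from the rest of a floxed gene remain, and they numbered 5803 to 9442 normalized counts in KO and 7876 and 7894 in WT. Il4 had 39.7 to 98.7 normalized counts in the Il4-deficient libraries and 107 to 523 in the others. The CD4 T cell label was borne out by Cd3e, at 13302 or more in every library, and Cd4, at 12165 or more. RNA of other cells was present as well: 12 macrophage and monocyte markers summed to 79675 normalized counts in IL4-/- replicate 2 and to 5900 to 19319 elsewhere, and 6 epithelial markers summed to 130610 in WT replicate 1 and to 10340 to 95950 elsewhere. The macrophage marker sum of 19319 was in WT replicate 1, where the mean of these markers on the log2 scale, 7.52, was the lowest of any library. In bulk RNA, fewer cells of a type and less RNA per cell cannot be told apart.

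Per kilobase of exon, and averaged over the 8 replicates, the members spanned a wide range. Tmem176b was highest at 1709 normalized counts per kilobase, followed by Tmem176a at 688 and Rora at 452. The cytokine Il17a had 169, Ccr6 129, Il23r 80.1 and Il17f 56.3. Il22 with 25.7 and Il1r1 with 23.3 were lowest. All later levels are normalized counts, which are reads divided by a size factor of the library and compare a gene between libraries but not with another gene.

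**Figure D1:**
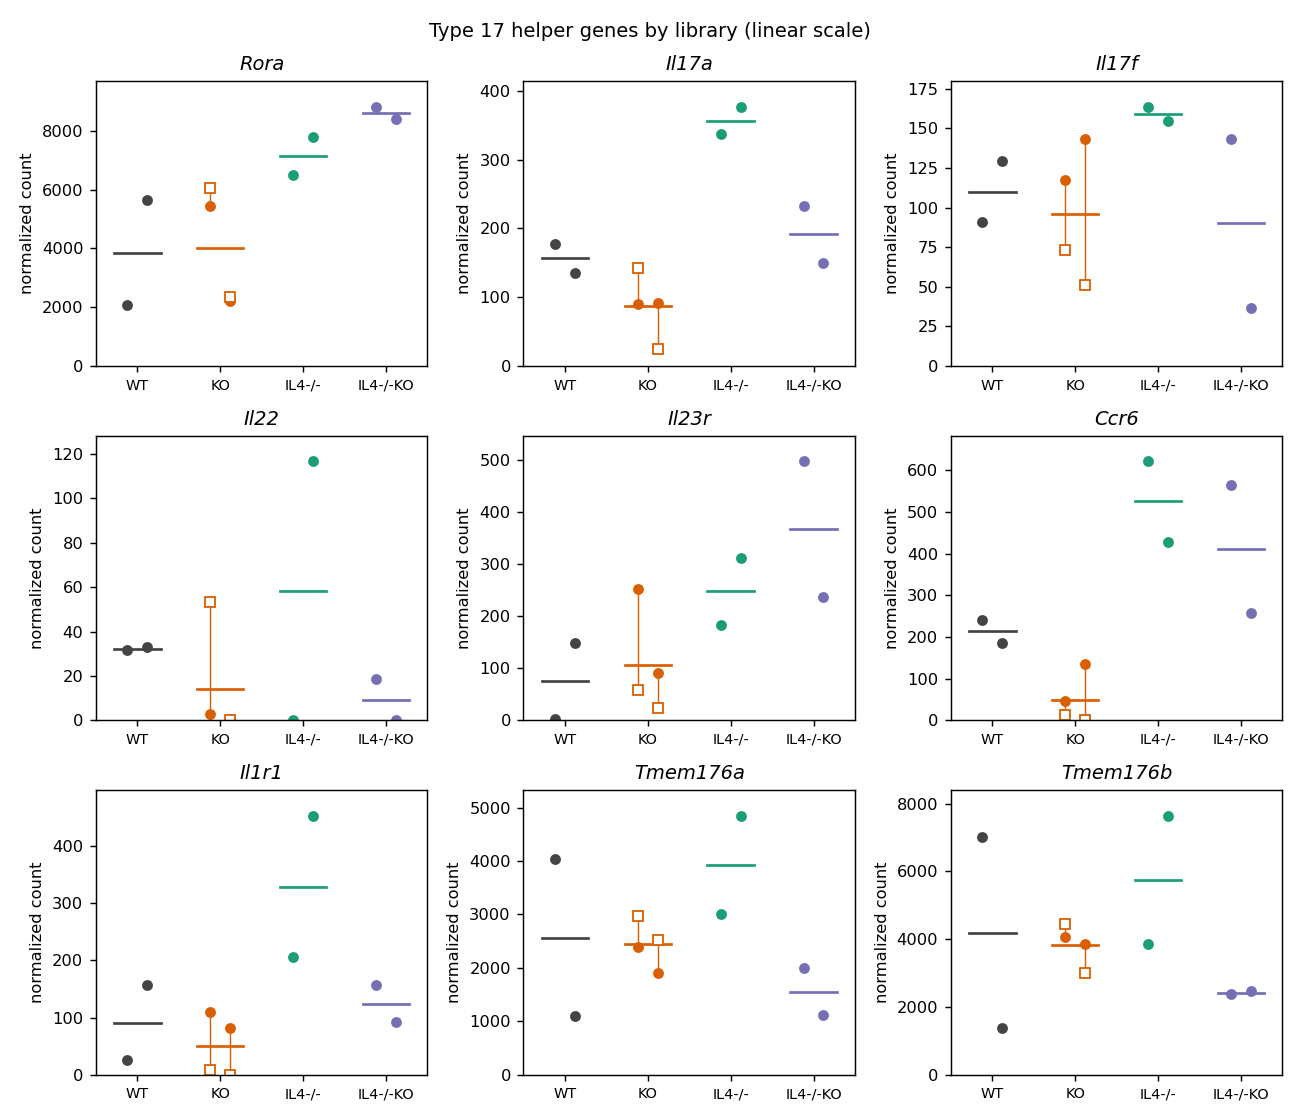
Normalized counts (linear axis from 0) of the 9 type 17 helper genes by genotype. Each point is a library, filled for a first library and an open square for a KO repeat, thin lines join the libraries of a KO replicate, and the horizontal bar is the mean of the 2 replicates; all 4 Il4-deficient libraries lie above all 6 others for Rora, from 6493 upward, and for Ccr6, from 259 upward.

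Rora encodes RORalpha, a nuclear receptor of type 17 cells and of type 2 innate lymphoid cells. In WT its normalized counts were 2056 and 5652. The first and repeat libraries of KO replicate 1 had 5450 and 6053, and those of replicate 2 had 2194 and 2342. It had 6493 and 7808 in IL4-/- and 8816 and 8391 in IL4-/-KO. The replicates of WT, and likewise those of KO, lay far apart, while the Il4-deficient libraries were all high. The means were 8604 in IL4-/-KO, 7151 in IL4-/-, 4009.7 in KO and 3854 in WT, and only the neighbours KO and WT overlapped in this order. The libraries made from 1 RNA gave close values for this abundant gene.

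Ccr6 encodes the receptor for Ccl20. Its normalized counts were 241 and 186 in WT. KO replicate 1 had 47.0 in its first library and 13.6 in its repeat, and KO replicate 2 had 135 and 0. It had 621 and 429 in IL4-/- and 564 and 259 in IL4-/-KO. All KO libraries lay below both WT libraries, and all Il4-deficient libraries lay above both. The means were 525 in IL4-/-, 411 in IL4-/-KO, 214 in WT and 49.0 in KO, and the replicates overlapped between the first 2 of these but not between other neighbours. The 0 in the repeat library of KO replicate 2, whose bound of 3 reads is 2.84 normalized counts, stood against 135 in the first library of the same RNA. Ccr6 is also made by B cells, and 4 of 5 B cell markers found in the table summed to 76.4 to 215 normalized counts in WT, 63.2 to 256 in KO, 195 to 201 in IL4-/- and 186 to 267 in IL4-/-KO. Of the defining B cell markers, Ms4a1 was at 0 in 6 of the 10 libraries, while Cd79a had 17.6 to 177 normalized counts in every library. Their part in the Ccr6 level was not tested.

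Il23r encodes the specific chain of the interleukin 23 receptor. In WT its normalized counts were 2.6 and 148. The first and repeat libraries of KO replicate 1 had 253 and 57.8, and those of replicate 2 had 91.9 and 23.6. It had 183 and 312 in IL4-/- and 497 and 238 in IL4-/-KO. WT replicate 1 was far below every other library, and the repeat KO libraries were below their first libraries. The means were 367 in IL4-/-KO, 248 in IL4-/-, 107 in KO and 75.3 in WT. The replicates overlapped between the Il4-deficient genotypes and between KO and WT, and those 2 pairs stood apart only with the KO libraries averaged. By library they overlapped, with 253 in the first library of KO replicate 1 against 183 in IL4-/- and 238 in IL4-/-KO.

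Il1r1 encodes the signalling receptor for interleukin 1. Its normalized counts were 25.0 and 157 in WT. KO replicate 1 had 110 in its first library and 8.5 in its repeat, and KO replicate 2 had 81.4 and 0. It had 205 and 452 in IL4-/- and 157 and 92.4 in IL4-/-KO. IL4-/- was higher than the other genotypes with a mean of 329, and IL4-/-KO at 125, WT at 91.1 and KO at 50.04 overlapped their neighbours. Both repeat KO libraries lay far below the first libraries of the same RNA.

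Il17a encodes interleukin 17A, the defining cytokine of the lineage. In WT its normalized counts were 178 and 135. The first and repeat libraries of KO replicate 1 had 89.7 and 142, and those of replicate 2 had 91.9 and 24.6. It had 337 and 377 in IL4-/- and 233 and 149.5 in IL4-/-KO. The IL4-/- replicates were the highest, and the KO replicates, each averaged over its libraries, were the lowest. The means were 357 in IL4-/-, 191 in IL4-/-KO, 156 in WT and 87.0 in KO, and among neighbours only IL4-/-KO and WT overlapped. By library WT and KO overlapped as well, with 142 in the repeat of KO replicate 1 against 135 in WT replicate 2.

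Il17f encodes the related interleukin 17F. Its normalized counts were 90.9 and 129 in WT. KO replicate 1 had 118 in its first library and 73.0 in its repeat, and KO replicate 2 had 143 and 51.1. It had 164 and 155 in IL4-/- and 143 and 36.8 in IL4-/-KO. IL4-/- was again the highest genotype with a mean of 159, and the other 3 genotypes, with means of 90.1 to 110, overlapped one another.

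Il22 encodes interleukin 22, which acts on epithelium. In WT its normalized counts were 31.6 and 33.0. KO replicate 1 had 2.9 in its first library and 53.5 in its repeat, and both libraries of KO replicate 2 were at 0. It had 0 and 117 in IL4-/- and 18.6 and 0 in IL4-/-KO. Il22 was thus read in 6 of 10 libraries, and its presence differed between replicates of 3 of the 4 genotypes, so no order of genotypes could be read from it. Markers of innate sources of interleukin 17 and 22 were read as well. Sox13, a factor of gamma-delta T cells, was above 0 in all libraries but the KO replicate 2 repeat, and 3 of 7 gamma-delta markers were found in the table. These 3 summed to 177 to 1049 normalized counts in WT, 0 to 541 in KO, 100 to 550.1 in IL4-/- and 135 to 641 in IL4-/-KO. The 6 innate lymphoid and NKT markers, all found, summed to 16835 to 28861 in WT, 20425 to 48496 in KO, 19822 to 24856 in IL4-/- and 23733 to 26489 in IL4-/-KO, with Zbtb16 at 0 in 1 library and Ncr1 at 0 in 4. The other defining marker of that list, Kit, was above 0 in every library, at 249 to 9068 normalized counts, with the highest values in WT replicate 1 (9068) and IL4-/- replicate 2 (5129). The defining markers made up little of the highest sum. In that library, the first of KO replicate 1 with 48496, Zbtb16 had 13.2, Kit 554 and Ncr1 0, and the rest came from the other markers of the list. The part of the gamma-delta, innate lymphoid and NKT markers in the cytokine levels was not tested.

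Tmem176a and Tmem176b encode related membrane proteins that are abundant in type 17 lymphocytes and also in dendritic cells and other myeloid cells. The normalized counts of Tmem176b were 7024 and 1373 in WT, 4056 and 4437 in KO replicate 1 (first and repeat library), 3856 and 3000.1 in KO replicate 2, 3860 and 7641 in IL4-/- and 2379 and 2467 in IL4-/-KO. Tmem176a had 4028 and 1092 in WT, 2398 and 2966 in KO replicate 1, 1906 and 2516 in KO replicate 2, 3012 and 4844 in IL4-/- and 1992 and 1113 in IL4-/-KO. For both genes WT replicate 1 and IL4-/- replicate 2 were high and WT replicate 2 was low, so the WT replicates spanned most of the range. The order of genotypes by mean was the same for both, IL4-/- over WT over KO over IL4-/-KO. Among neighbours in this order, only the replicates of KO and IL4-/-KO did not overlap, and those of IL4-/- also lay above those of IL4-/-KO. By library, Tmem176a of KO and IL4-/-KO did overlap, with 1906 in KO replicate 2 and 1992 in IL4-/-KO. IL4-/- replicate 2 was also the library with 79675 normalized counts of macrophage markers, while WT replicate 1 was the library with 130610 normalized counts of epithelial markers, against 10992 in WT replicate 2. The part of these epithelial markers was not tested. The macrophage markers, all 12 found, summed to 10823 to 19319 in WT, 11479 to 13281 in KO, 7523 to 79675 in IL4-/- and 5900 to 12655 in IL4-/-KO, with no defining marker (Lyz2, Csf1r, C1qa) at 0 in any library. The 7 dendritic cell markers, all found, summed to 944 to 3384 in WT, 2246 to 5798 in KO, 2471 to 13586 in IL4-/- and 1596 to 8132 in IL4-/-KO, with Itgax at 0 in 1 library, Flt3 at 0 in 5 and Zbtb46 above 0 in every library, at 104 to 1145. The part of the dendritic cell markers was not tested.

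Deletion of Tgfbr2 with Il4 intact, KO against WT, went with fewer Ccr6 reads in every KO library, but no member passed the test. The share of all genes with such a split was not counted, so the split is a description only. Log2 fold changes here are from limma on log2(normalized count + 1), with p-values adjusted over the 14473 genes. The log2 fold change of Ccr6 was -2.20 ± 0.70 (SE, n = 2 against 2), with an adjusted p in limma of 0.353 and a 95% interval of -3.81 to -0.59. Il17a had -0.91 ± 0.67 (adjusted p in limma 0.625) and Il23r 2.04 ± 1.59 (adjusted p in limma 0.646). The differences of Rora, Il17f, Il22, Il1r1, Tmem176a and Tmem176b were smaller than their own standard errors. Of the 9 members 0 passed in limma and 0 in edgeR, against 0.00691% of all genes in limma, and 1 had an unadjusted p under 0.05 in limma and 1 in edgeR, against 12.1% of all genes in limma. DESeq2 on the recovered reads called Ccr6, at -2.36 with an adjusted p of 0.0318, and called 4.03% of the genes it tested. With only the first KO libraries, which match WT in depth, the Ccr6 difference was -1.40, with an adjusted p in limma of 0.552. Il23r rests on 1 library: its difference was -0.64 without WT replicate 1 and 4.72 without WT replicate 2, and edgeR and DESeq2 gave 0.29 and 0.30. For low genes the size of a difference depended on the method, as for Il22 with -2.62 in limma, -0.82 in edgeR and -0.85 in DESeq2. Without KO replicate 1 the Il17a difference was -1.39, and without KO replicate 2 it was -0.42.

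On the Il4-deficient background, IL4-/-KO against IL4-/-, 7 of 9 members were lower and 2 higher, and no member passed the test. Tmem176a had a log2 fold change of -1.36 ± 0.61 and Tmem176b of -1.16 ± 0.70. Both IL4-/-KO replicates lay below both IL4-/- replicates for these genes and for Il17a, Il17f and Il1r1, and above them for Rora. The share of all genes that separate in this way was not counted, so these splits are a description and no result about the members. Among the cytokines, Il17a had -0.93 ± 0.67 and Il17f -1.12 ± 0.87. The receptor Il1r1 had -1.33 ± 1.04. Each of these 5 lower genes had an adjusted p of 1 in limma, and the other 4 members differed by less than their standard errors. Ccr6 was among these, with -0.43 and a 95% interval of -2.05 to 1.18. In limma 0 members passed against 0.0% of all genes, and 0 had an unadjusted p under 0.05 against 3.25% of all genes. In edgeR 0 passed and 0 had an unadjusted p under 0.05, and in DESeq2 0 passed, against 0.359% of its genes, and 1 had an unadjusted p under 0.05. Without IL4-/-KO replicate 2 the median difference of the 9 members was -0.15 in place of -1.12, and all genes had a median of -0.03. The Il17f difference was -0.15 without that replicate and -2.08 without IL4-/-KO replicate 1, and the Il17a difference was -0.61 without IL4-/-KO replicate 2. Without IL4-/- replicate 2 the differences of Tmem176b and Il1r1 were -0.67 and -0.76.

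Over both backgrounds, the mean difference made by Tgfbr2 deletion was -1.32 ± 0.49 for Ccr6 on the log2 scale, with an adjusted p in limma of 0.474. The mean differences of the cytokines were -0.92 ± 0.47 for Il17a, -0.64 ± 0.62 for Il17f and -1.96 ± 1.91 for Il22, with adjusted p in limma of 0.552, 0.731 and 0.739. The remaining differences larger than their standard error were those of Il1r1 at -0.84 ± 0.73, Tmem176a at -0.57 ± 0.43 and Il23r at 1.28 ± 1.13, with adjusted p in limma of 0.705, 0.663 and 0.708. In all, 7 of 9 members were lower and 2 higher, with a median of -0.64, where 45.0% of all genes were higher and the median of all genes was -0.08. No member passed in limma, against 0.0207% of all genes, and 1 had an unadjusted p under 0.05, against 9.87%. In edgeR 0 passed and 1 had an unadjusted p under 0.05, as was the case in DESeq2, which called 2.43% of its genes. Without WT replicate 1 the Il23r difference was -0.057, that of Tmem176a -0.10 and that of Il1r1 -1.49, and without WT replicate 2 they were 2.62, -1.04 and -0.19. Without IL4-/-KO replicate 1 or 2 the Il17f difference was -1.13 or -0.16, and that of Il22 ran from -3.68 (without IL4-/- replicate 1) to -0.24 (without IL4-/- replicate 2). With all 10 libraries and a term for the depth set, the Ccr6 difference was -0.91 (adjusted p in limma 0.908).

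The interaction asks whether the difference made by Tgfbr2 deletion depended on the Il4 background. It was 1.77 ± 0.99 for Ccr6, whose difference was smaller in size on the Il4-deficient background, -1.57 ± 0.86 for Tmem176a and -1.46 ± 0.98 for Tmem176b, whose differences were more negative there. The adjusted p in limma was 0.988 for each of these, so no dependence was shown. Without WT replicate 2 those of Tmem176a and Tmem176b were -0.63 and -0.28, and without WT replicate 1 they were -2.51 and -2.64. Without IL4-/- replicate 2 that of Tmem176b was -0.97. The 95% interval of the Ccr6 interaction ran from -0.52 to 4.05. Of the 9 members 0 passed in limma, against 0.0% of all genes, and 0 had an unadjusted p under 0.05, against 3.52%. In edgeR 0 passed and 0 had an unadjusted p under 0.05, and in DESeq2 0 passed, against 0.252% of its genes, and 1 had an unadjusted p under 0.05.

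**Figure D2:**
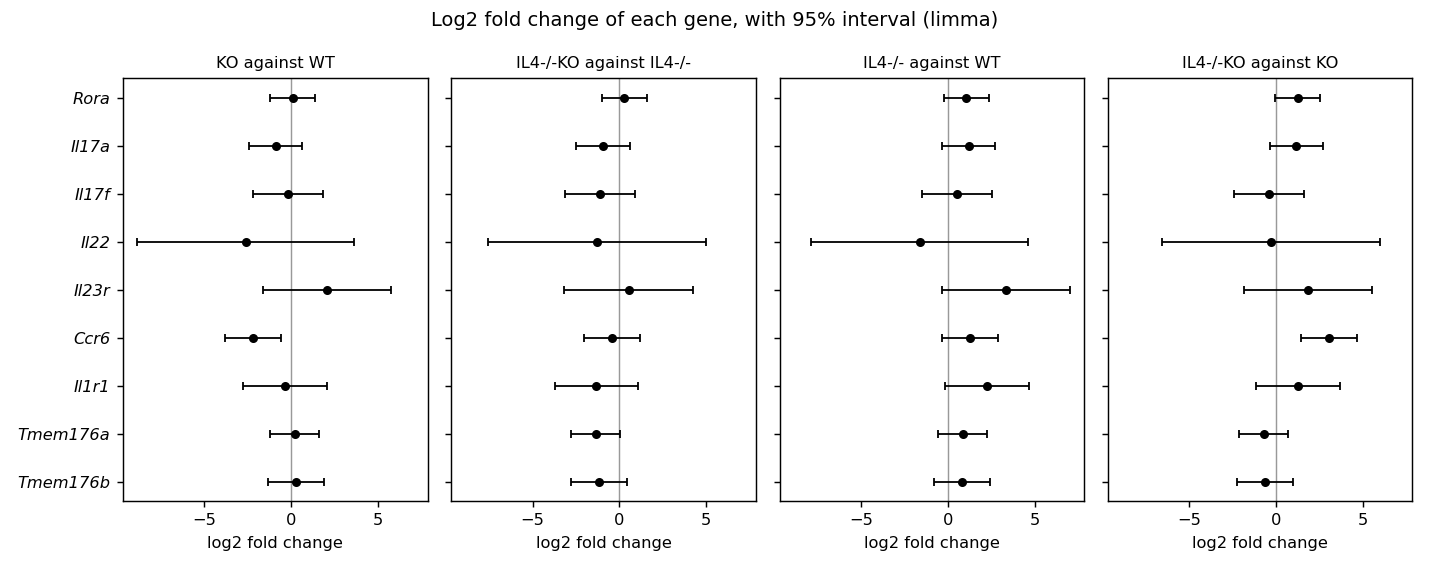
Log2 fold change of each member in the 4 pairwise comparisons, from limma on log2(normalized count + 1), with points at the estimate and bars for the 95% interval (2 replicates a genotype). The intervals of Ccr6 in KO against WT (-3.81 to -0.59) and in IL4-/-KO against KO (1.43 to 4.66) are the only ones that leave out 0, and neither passed after adjustment over all genes.

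Il4 deficiency with Tgfbr2 intact, IL4-/- against WT, went with higher values of 8 of the 9 members, and no member passed the test. These values use the same WT libraries as KO against WT. The receptors had the wider differences, at 3.37 ± 1.59 for Il23r, 2.25 ± 1.04 for Il1r1 and 1.28 ± 0.70 for Ccr6 on the log2 scale. Il17a had 1.20 ± 0.67, Rora 1.06 ± 0.56, Tmem176a 0.86 ± 0.61 and Tmem176b 0.81 ± 0.70, and each of these 7 had an adjusted p of 1 in limma. The median of the 9 members was 1.06, against 0.01 for all genes, of which 50.3% were higher. In limma 0 members passed against 0.0% of all genes, and 0 had an unadjusted p under 0.05 against 4.08%. In edgeR and in DESeq2 0 passed and 0 had an unadjusted p under 0.05, with 0.2% of all genes called in DESeq2. The WT libraries were all in the shallower set and the IL4-/- libraries in the deeper one, so depth set and genotype cannot be told apart here except through the KO libraries. With all 10 libraries and a term for that set, the differences were 5.38 for Il23r, 7.21 for Il1r1 and 5.69 for Ccr6, with adjusted p in limma of 0.985, 0.724 and 0.985. That term is estimated from the KO libraries alone, where Ccr6 and Il1r1 were at 0 in the repeat of KO replicate 2, so these sizes depend on the value of 1 added before the log2. Without WT replicate 1 the differences were 0.69 for Il23r, 0.95 for Il1r1, 0.33 for Rora, 1.81 for Tmem176a and 1.98 for Tmem176b. Without WT replicate 2 they were 6.05, 3.55, 1.79, -0.077 and -0.37 in the same order. Without IL4-/- replicate 2 those of Tmem176a and Tmem176b were 0.52 and 0.31, and without IL4-/- replicate 1 that of Tmem176b was 1.30. In edgeR and DESeq2 the Il23r difference was 1.69 and 1.71.

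Il4 deficiency with Tgfbr2 deleted, IL4-/-KO against KO, went with higher Ccr6, Rora and Il17a and lower Tmem176b in every library. No member passed the test in limma. How many of all genes split this way was not counted, so these splits are a description only. Ccr6 had a log2 fold change of 3.05 ± 0.70 with a 95% interval of 1.43 to 4.66 and an adjusted p in limma of 0.321. Rora had 1.25 ± 0.56 (adjusted p in limma 0.444) and Il17a 1.17 ± 0.67 (adjusted p in limma 0.550). Il23r had 1.85 ± 1.59, Il1r1 1.27 ± 1.04 and Tmem176a -0.71 ± 0.61, with adjusted p in limma of 0.694, 0.673 and 0.692. In all, 5 members were higher and 4 lower, with a median of 1.17 against -0.07 for all genes. In limma 0 members passed against 0.0% of all genes, and 1 had an unadjusted p under 0.05 against 11.7%. In edgeR 0 passed and 1 had an unadjusted p under 0.05, while DESeq2 called Ccr6, at 3.29 with an adjusted p of 0.00102, and called 2.77% of its genes. With only the KO repeat libraries, which match IL4-/-KO in depth, the difference of Ccr6 was 6.65 ± 1.34 and that of Il1r1 5.30. Their adjusted p in limma was 0.204 and 0.256, and both genes were at 0 in 1 of those libraries. With only the first KO libraries, which are shallower, the differences were 2.24 for Ccr6 and 0.34 for Il1r1. Without KO replicate 2 the differences were 0.58 for Rora, 0.68 for Il17a and 1.14 for Il23r, and without KO replicate 1 that of Rora was 1.92. The Tmem176a difference was -1.13 and -0.29 without IL4-/-KO replicate 1 and 2.

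The mean difference made by Il4 deficiency over both Tgfbr2 states was computed after the levels had been seen. It was 2.16 ± 0.49 for Ccr6, 1.16 ± 0.40 for Rora, 1.19 ± 0.47 for Il17a, 1.76 ± 0.73 for Il1r1 and 2.61 ± 1.13 for Il23r on the log2 scale. Their adjusted p in limma was 0.279, 0.374, 0.422, 0.429 and 0.437. Il17f, Il22, Tmem176a and Tmem176b differed by less than their standard errors. In limma 0 members passed against 0.0% of all genes, and 4 had an unadjusted p under 0.05 against 11.5%. In edgeR 0 passed and 2 had an unadjusted p under 0.05. DESeq2 called Ccr6, at 2.29 with an adjusted p of 0.00135, and called 2.24% of its genes. Rora and Ccr6 were the 2 of 9 members whose 4 Il4-deficient libraries all lay above the 6 others, which was the case for 2.14% of all genes. The gaps were narrow: 6493 against 6053 for Rora and 259 against 241 for Ccr6. With all 10 libraries and a term for the depth set, the differences were 6.17 for Ccr6, 6.25 for Il1r1, 4.28 for Il23r, 1.07 for Rora and 1.72 for Il17a, with adjusted p in limma of 0.146, 0.137, 0.298, 0.399 and 0.421 and the same limit of the KO libraries at 0. With only the first KO libraries, the mean differences were 1.76 for Ccr6 and 1.30 for Il1r1. Without WT replicate 1 the mean differences of Il23r and Il1r1 were 1.27 and 1.11, and without WT replicate 2 that of Il23r was 3.95.

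Another 30 genes of the type 17 pathway, all tested, were counted beside the members: 10 transcription factors, 9 receptors of inducing cytokines and 11 other effector genes. In KO against WT 17 were higher and 13 lower, and the same split held in IL4-/-KO against IL4-/-. The split was 21 and 9 in IL4-/- against WT, 12 and 18 in IL4-/-KO against KO, 11 and 19 for the interaction, and 15 and 15 for each mean over both states. In limma 1 of the 30 passed in 1 comparison, the mean over both backgrounds of Tgfbr2 deletion, and 0 passed in the other comparisons. Of the 30, 9 had an unadjusted p under 0.05 in limma in KO against WT, where 12.1% of all genes did. The number was 4 in IL4-/-KO against IL4-/- (3.25% of all genes), 3 in IL4-/- against WT (4.08%) and 4 in IL4-/-KO against KO (11.7%). It was 3 for the interaction (3.52%), 7 for the mean of Tgfbr2 deletion (9.87%) and 4 for the mean of Il4 deficiency (11.5%). With a list of 30 genes, 4 against 11.7% and 4 against 11.5% lie near the share of all genes. The list was chosen with earlier results of these data known and holds Tgfbr2 itself, so a larger share is no independent result. In edgeR 0 of the 30 passed in any comparison.

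The gene that passed was Ahr, which encodes the aryl hydrocarbon receptor, a ligand-activated factor needed for interleukin 22 in type 17 cells. Where Tgfbr2 was intact, normalized counts of Ahr were 3209 and 4511 (WT) and 2436 and 3200.2 (IL4-/-). Where it was deleted they were 439.6 and 922 in KO replicate 1, 488 and 882 in KO replicate 2, and 595 and 402 in IL4-/-KO. All 6 libraries with deleted Tgfbr2 lay below all 4 without it, as in 1.31% of all genes. Ahr fell by 2.49 ± 0.24 on the log2 scale over both backgrounds (adjusted p in limma 0.0425). In KO against WT it had -2.48 ± 0.35 (adjusted p in limma 0.250) and in IL4-/-KO against IL4-/- -2.51 ± 0.35 (adjusted p in limma 0.477). The call over both backgrounds was lost when any 1 of the 8 replicates was left out and in edgeR, while DESeq2 called it with an adjusted p of 2.36e-14.

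Stat3, which carries the interleukin 6 and 23 signals and was chosen after its values had been seen, differed by less than its standard error, with 0.01 ± 0.28 and -0.04 ± 0.28 for the means of Tgfbr2 deletion and of Il4 deficiency on the log2 scale.

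Other pathway genes differed in the opposite direction to Ahr. Ltb4r1, a leukotriene receptor, was at 204 and 164 normalized counts in WT, 1178 to 6206 in the KO libraries, 455 and 937 in IL4-/- and 862 and 1104 in IL4-/-KO. Its log2 fold change in KO against WT was 3.71 ± 0.64 (adjusted p in limma 0.250), and its interaction was -3.13 ± 0.90 (adjusted p in limma 0.988). Neutrophils also carry this receptor, and the 5 neutrophil markers, all found, summed to 133 and 510 normalized counts in WT, 5309 and 6083 for KO replicate 1 (first and repeat library), 810.3 and 356 for KO replicate 2, 109 and 872 in IL4-/- and 154 and 420.3 in IL4-/-KO. S100a8 was above 0 in every library, S100a9 was at 0 in 1 and Csf3r at 0 in 2. The neutrophil markers were highest in KO replicate 1 and Ltb4r1 in KO replicate 2, and their part in the Ltb4r1 level was not tested. Csf2, the gene of the growth factor GM-CSF that pathogenic type 17 cells also make, was at 173 and 154.5 in WT, 1684 to 3114 in the KO libraries, 42.1 and 137 in IL4-/- and 1131 and 291 in IL4-/-KO. All libraries with deleted Tgfbr2 lay above all without it for Csf2, as in 2.05% of all genes, and its difference on the Il4-deficient background was 2.90 ± 0.79 (adjusted p in limma 1). Batf, an AP-1 factor that opens type 17 genes, was at 1400.2 and 1504 in WT and 3522 to 12548 in the KO libraries. It was at 1886 and 1147 in IL4-/- and 3746 and 3357 in IL4-/-KO. All libraries with deleted Tgfbr2 thus lay above all without it for Batf too, the split found in 2.05% of all genes. In IL4-/-KO against KO Batf had -1.12 ± 0.44 (adjusted p in limma 0.400). DESeq2 called 5 of the 30 in KO against WT (Ahr, Csf2, Ltb4r1, Batf and Nfkbiz), where it called 4.03% of all its genes. It called 2 in IL4-/-KO against IL4-/- (Ahr and Csf2; 0.359% of its genes) and 4 for the mean of Tgfbr2 deletion (Ahr, Csf2, Ltb4r1 and Batf; 2.43% of its genes). It called 0 in the other 4 comparisons.

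Ccl20, the ligand of the Ccr6 receptor, was at 44.8 and 48.8 normalized counts in WT, 20.8 to 178 in the KO libraries, 11.3 and 20.6 in IL4-/- and 8.9 and 0 in IL4-/-KO. The Il4-deficient libraries were thus all below the others, by a narrow gap of 20.6 against 20.8, a split found in 1.91% of all genes. Its log2 fold change was -4.54 ± 1.52 in IL4-/-KO against KO and -3.04 ± 1.08 for the mean of Il4 deficiency, with adjusted p in limma of 0.365 and 0.378. Il1rap, the partner chain of Il1r1, had an interaction of 1.64 ± 0.69 (adjusted p in limma 0.988). Tgfbr2 itself had 13816 and 12544 normalized counts in IL4-/- and 7762 and 8205 in IL4-/-KO, and IL4-/- against WT gave 0.74 ± 0.27 (adjusted p in limma 1).

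**Figure D3:**
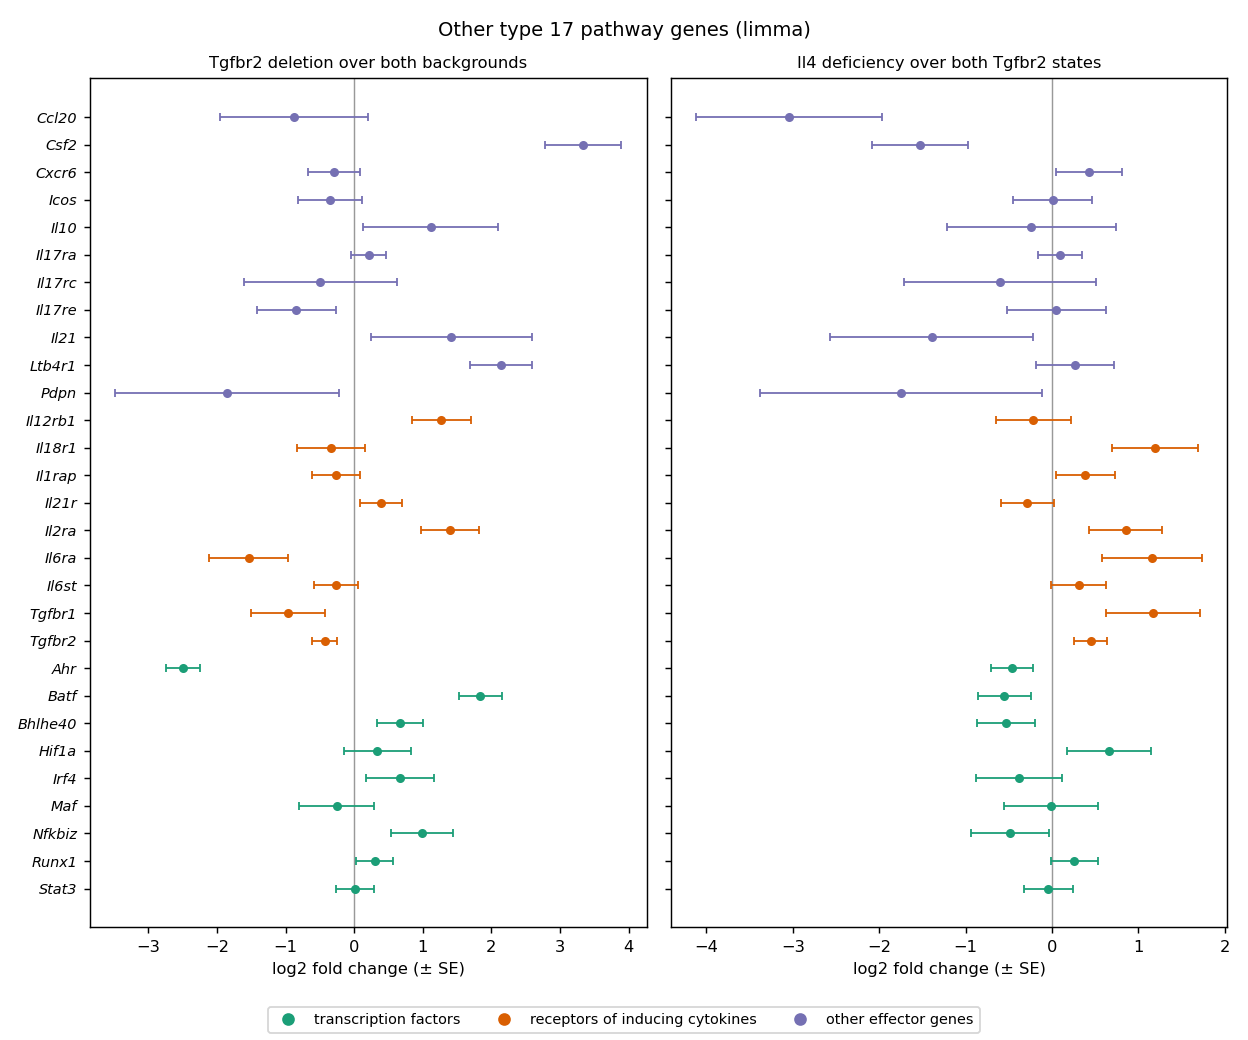
Log2 fold change with its standard error (bars) of the other type 17 pathway genes (1 of the 30 is not shown), from limma, for the mean over both backgrounds of Tgfbr2 deletion (left) and of Il4 deficiency (right), coloured by role. Ahr, at -2.49 on the left, is the only gene shown past the threshold.

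Some members varied together across replicates and others did not. Over the 8 replicates, on the log2 scale, Tmem176a and Tmem176b had a Pearson r of 0.935 (exact permutation p = 0.00114, adjusted over the 4 relations computed 0.00456) and a Spearman rho of 0.952 (exact permutation p = 0.00114, adjusted 0.00456). Without the 2 replicates farthest from the median of Tmem176a, r was 0.964. Within the 6 deeper libraries r was 0.877 (exact permutation p = 0.025), and the shallower set held only 4 libraries. The genes share 81 exonic bases, so part of their reads may be counted for either.

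The neighbours Il17a and Il17f had an r of 0.449 (exact permutation p = 0.269, adjusted 0.359) and a rho of 0.595 (exact permutation p = 0.132, adjusted 0.176). Their r was 0.507 without the 2 extreme replicates and 0.706 within the 6 deeper libraries (exact permutation p = 0.0778). With only the first KO libraries it was 0.277, and -0.14 without the 2 extreme replicates. Tmem176b and the mean of the macrophage markers had an r of 0.262 (exact permutation p = 0.532, adjusted 0.532) and a rho of -0.17 (exact permutation p = 0.703, adjusted 0.703). Without the 2 replicates with the most extreme marker level, which include IL4-/- replicate 2, that r was -0.38, and within the 6 deeper libraries it was 0.662 (exact permutation p = 0.158). Ccr6 and the mean of the B cell markers had an r of 0.544 (exact permutation p = 0.148, adjusted 0.295) and a rho of 0.619 (exact permutation p = 0.115, adjusted 0.176). That r was 0.415 without the 2 extreme replicates and 0.816 within the 6 deeper libraries (exact permutation p = 0.0583). Of the 4 relations only that of Tmem176a with Tmem176b passed, and the replicates share genotypes and depth sets.

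**Figure D4:**
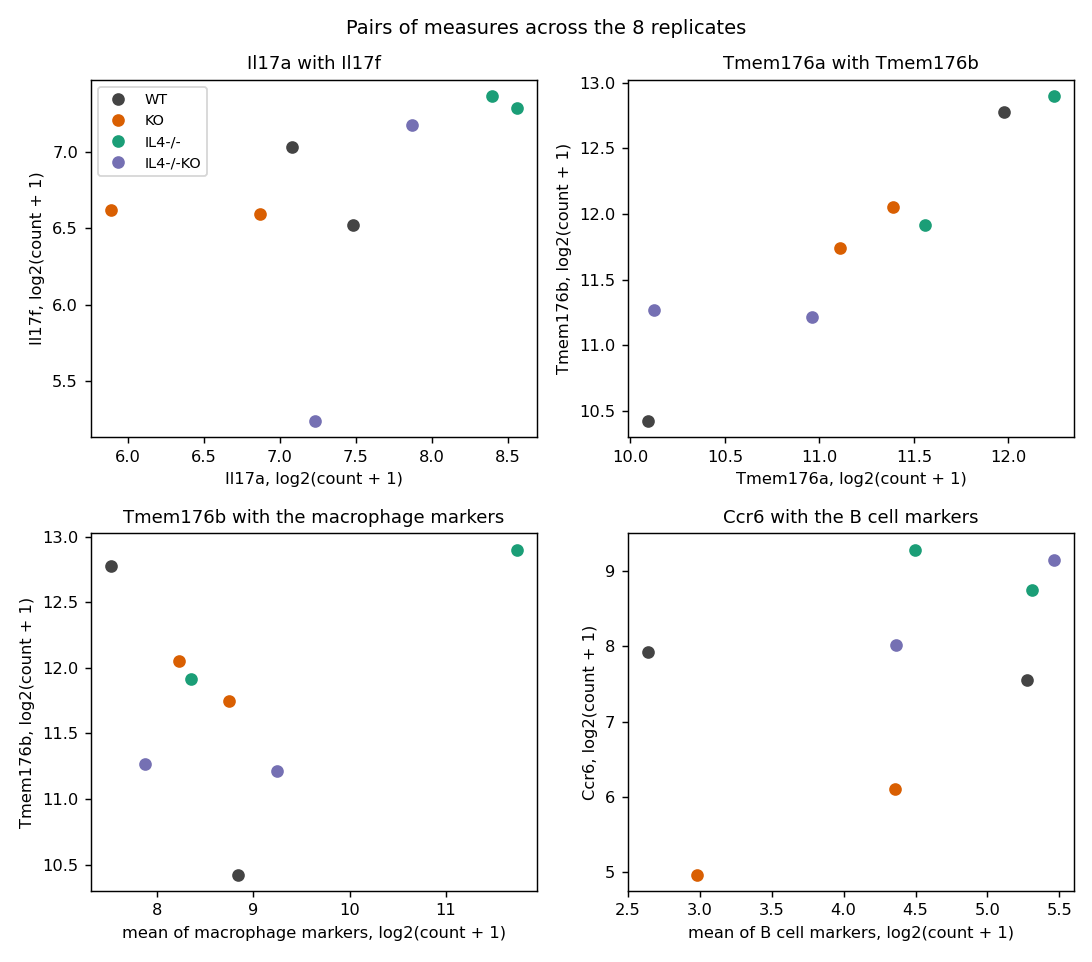
The 4 relations over the 8 replicates on the log2(normalized count + 1) scale, each point a replicate coloured by genotype. Tmem176a and Tmem176b rise together (r = 0.935), while the other panels scatter (r = 0.262 to 0.544).

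As a description, each member was set beside the genes of the whole table with the most similar pattern over the 8 replicates, among 9966 genes of at least moderate level. With so few replicates high values of r arise for many genes. Closest to Rora were Snx10, Clspn and Cep128 (r of 0.987 to 0.970), and closest to Ccr6 were Ift80, Cd2ap and A730017L22Rik (0.960 to 0.950). Closest to Il23r were Fam129a, Vps13c and Cyfip2 (0.969 to 0.949), and closest to Il1r1 were Jarid2, Nup98 and Wdr26 (0.974 to 0.951). Il17a was most like Mlh3, Mbtd1 and Dbt (0.976 to 0.965), Il17f most like Map4k3, Cd244 and Eif2ak4 (0.979 to 0.947) and Il22 most like Jag1, Bcl6 and Ercc4 (0.918 to 0.892). Tmem176a was most like Tmem176b, Mcl1 and Ano8 (0.935 to 0.919), and Tmem176b most like Slc46a1, Tmem176a and Prkra (0.936 to 0.934). Among the members themselves, Rora with Il23r had an r of 0.888 and Il17a with Ccr6 an r of 0.805, while Rora with Tmem176b had -0.31.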

How the data were processed

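Per the labels' protocols, amplification used SMART-Seq v4 and library preparation KAPA Hyper Prep, with no molecular identifiers. Per the submitters' processing notes, bcl2fastq 2.18.0, STAR and DESeq2 were used on build mm10; the read counter, its annotation and strand setting are not given in the sources used here. The deposited signal was normalized counts: 100% of values were whole reads divided by a size factor, to within 0.001 reads. The 7 rows without a gene name held at most 0.0205% of any library and were left out.

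Values of the first and repeat library of each KO replicate were averaged. limma 3.58.1 (R 4.3.3) with a mean-variance trend, all 4 genotypes and 4 residual degrees of freedom was run on log2(normalized count + 1), on the 14473 genes that reached 10 normalized counts in 2 or more of 8 replicates, with Benjamini-Hochberg adjustment and a threshold of 0.05. On the recovered reads, edgeR 4.0.16 (quasi-likelihood) and DESeq2 1.42.0 (Wald) were alternatives, with 20 other settings. Positions came from GENCODE on mm10, promoters from RefSeq. The limma step was tested on simulated data. Figures used matplotlib 3.10.9.

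The members and lists were chosen with earlier results of these data known. Named genes were all 9 members and, in each comparison, the pathway genes past the threshold or the 2 with the smallest p, the 3 genes most like each member, and the defining markers. The mean over Il4 deficiency was added after the values had been seen. For 1 pathway gene and 1 defining marker, the values of the gene itself are not reported here.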

Additional observations from a re-analysis of the deposited data

How the results depend on the processing

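Under the 20 limma settings besides the one reported, and in edgeR, 0 of the 9 members passed the test in any comparison. DESeq2 called 1 member (Ccr6) in KO against WT, 1 in IL4-/-KO against KO and 1 for the mean of Il4 deficiency, and 5, 2 and 4 pathway genes in KO against WT, in IL4-/-KO against IL4-/- and for the mean of Tgfbr2 deletion. The single pathway call for that mean, Ahr, was 0 with no filter, TMM rescaling, no trend, only the KO repeat libraries, the replicate block and edgeR, and 0 to 0 when each replicate was left out; the cause was not tested. Equal replicate numbers did not deviate together (r of -0.36 to 0.24), so they were not taken as pairs, and the replicate block changed no other call.

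The 36 log2 fold changes larger than their standard error were recomputed under the alternatives, which gave 777 values. Of these values 4 changed sign, all when a WT replicate was left out, and the cause was not tested. Leaving out each replicate gave -0.64 to 4.72 for Il23r in KO against WT and -0.057 to 2.62 for its mean of Tgfbr2 deletion, with the sign change without WT replicate 1, when the lone WT sample is taken to vary like the other groups. It gave -0.077 to 1.81 for Tmem176a and -0.37 to 1.98 for Tmem176b in IL4-/- against WT, with the sign change without WT replicate 2. Over all members and comparisons, 74 of 1359 recomputed values changed sign. Quantile normalization moved the median of all genes from -0.07 to 0.03 in KO against WT and from -0.08 to 0.04 for the mean of Tgfbr2 deletion. A fit with only the genotypes compared could not be made for the interaction and the means. Il22 and the low receptors rest on few reads, and amplified reads are not independent molecules.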
